A study of Drosophila melanogaster with 8 samples.

Results

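Transposable elements are stretches of DNA that can copy or move themselves within a genome, and fly chromosomes carry many such copies, most of them damaged. LTR retrotransposons and non-LTR retrotransposons spread through an RNA intermediate that is copied back into DNA, terminal inverted repeat elements are cut out and pasted by a transposase, and INE-1 is an old, short element of the Helitron-like kind that no longer moves by itself. In flies their RNA is held down by small RNA pathways: piRNAs bound to Piwi-family proteins mainly in the gonad, and siRNAs made by Dcr-2 and loaded into AGO2 in body tissues such as muscle, with heterochromatin proteins acting on the DNA itself.

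The members were all 5578 entries that the deposited muscle table classes as transposable elements, out of 23983 entries, and they were taken without regard to their values. Each entry is 1 annotated copy in the fly reference genome, with a median length of 345 bases, and the names group 5554 of them into 133 element families. The study compared adult Drosophila melanogaster muscle of wildtype flies with muscle of mutant flies, in which anw is knocked out per the series design. Each genotype had 2 RNA-seq libraries, all flies were kept under the same rearing conditions per the labels, and the labels name no allele, parental strain, sex or driver. Nothing in the labels says whether the 2 libraries of a genotype came from separate groups of flies, so the p-values below measure the spread between these libraries, which may be technical.

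The values were FPKM, which scale the reads of an entry to its length and to the library's size. Multiplied by length they gave whole read counts for each copy. Depth was 18580751 to 21343286 recovered reads per library. All 12 fixed muscle markers passed the filter on low values, with a summed level of 10691 to 14546 FPKM. The mutant minus wildtype log2 difference was positive in 9 of them and negative in 3. Of these sls alone had an unadjusted limma p under 0.05, with a difference of 0.97. The libraries differed in the RNA of other tissues. Summed levels of 9 eggshell genes were 884 and 158 FPKM in the wildtype libraries and 5.38 and 71.0 FPKM in the mutant libraries. Summed levels of 10 testis genes were 111 and 34.3 FPKM in wildtype and 322 and 1.93 FPKM in mutant. At 0 reads stood 1 eggshell gene in each mutant library and 1 to 3 testis genes in each library. The 6 ovarian germline genes other than grk, which held most of that list's sum, had 12.9 and 2.71 FPKM in wildtype and 3.50 and 3.51 FPKM in mutant. Summed levels of 7 gut genes followed genotype, with 12209 and 15900 FPKM in wildtype and 11155 and 8821 FPKM in mutant. The difference of means was negative in 7 of 7. Of these Amy-p and Amy-d, both amylases, had an unadjusted limma p under 0.05. Jon25Bi did not keep the genotypes apart, at 276 and 189 FPKM in wildtype and 431 and 75.3 FPKM in mutant. In the fat body list, 6 of 7 differences were negative, with sums of 26601 and 14452 FPKM in wildtype and 8421 and 19557 FPKM in mutant. In the neuron list, 5 of 6 differences were positive and 1 was negative. Reads of w, the eye pigment transporter gene, numbered 2 and 1 in wildtype and 1110 and 951 in mutant, so w RNA also differed between the genotypes. Whether the w locus itself differs was not measured here. Whether each stock carries the same insertions as the reference genome was not measured here. In whole-tissue RNA, more cells of a type and more RNA per cell cannot be told apart.

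More reads fell on transposable element copies in the mutant libraries than in the wildtype libraries, but they stayed a very small part of the RNA. Copies received 12830 and 12524 reads in wildtype 1 and 2, and 17365 and 23895 reads in mutant 1 and 2. As shares of all recovered reads these were 0.0601% and 0.0626% in wildtype and 0.0935% and 0.116% in mutant. Both mutant libraries lay above both wildtype libraries. In FPM, meaning FPKM times length in kilobases summed over copies, totals were 600 and 609 in wildtype and 858 and 1309 in mutant. The difference of mean log2 FPM was 0.81, or 1.75-fold, with an SD of 0.02 between wildtype libraries and 0.43 between mutant libraries (n = 2 each). A sum over the members is given as a description, with no p. Leaving out mutant 2 gave a difference of 0.50 and leaving out mutant 1 gave 1.11. As a share of each library's reads the log2 difference was 0.76, which leaves out the authors' scaling. The same summed log2 difference was -0.08 for protein-coding genes, 0.58 for noncoding RNAs and 1.16 for pseudogenes. The part of gut, fat body and gonad RNA in this difference was not tested.

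Every class of element had higher summed FPM in both mutant libraries than in both wildtype libraries, and so did the 59 copies with no class, at 1.45 and 2.04 FPM in wildtype and 3.16 and 5.26 in mutant. LTR retrotransposons, 1385 copies, had 206 and 199 FPM in wildtype and 334 and 534 in mutant, a log2 difference of 1.06 (SD 0.04 and 0.48 within genotypes). Non-LTR retrotransposons, 1068 copies, had 142 and 153 FPM in wildtype and 198 and 264 in mutant, a log2 difference of 0.64 (SD 0.07 and 0.29). The 763 terminal inverted repeat copies had 70.2 and 79.1 FPM in wildtype and 97.1 and 140 in mutant, a log2 difference of 0.65 (SD 0.12 and 0.38). With copia included, LTR elements were thus the named class with the widest gap. Copia, an LTR family described below, held 41.0 and 35.7 FPM of the wildtype LTR sums. Of the mutant LTR sums it held 158 and 241 FPM. With copia subtracted from these sums, the LTR log2 difference fell below those of non-LTR, terminal inverted repeat and INE-1 elements. The ranking therefore rested on that 1 family. The 2235 INE-1 copies had 171 and 168 FPM in wildtype and 216 and 351 in mutant, a log2 difference of 0.70 (SD 0.02 and 0.50). The 68 foldback copies, elements made mostly of long inverted repeats, had 9.12 and 9.44 FPM in wildtype and 9.49 and 14.0 in mutant, a log2 difference of 0.31 (SD 0.03 and 0.40). For foldback elements mutant 1 lay just above wildtype 2, and the gap came from mutant 2.

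**Figure D1:**
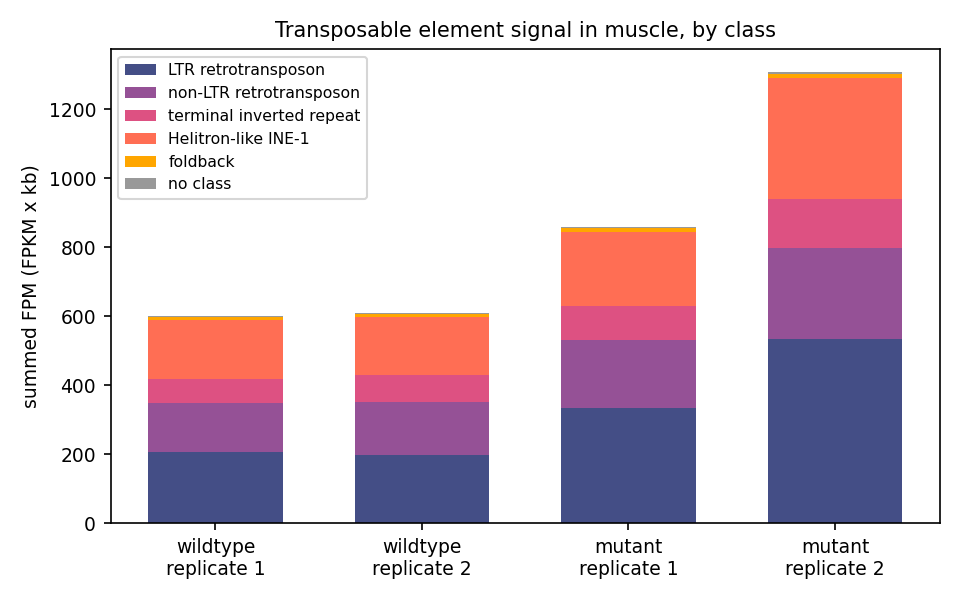
Stacked bars of summed FPM of transposable element copies in each of the 4 muscle libraries, on a linear axis from 0, with 1 colour per class. The bars reach 600 and 609 FPM in wildtype and 858 and 1309 FPM in mutant, and the LTR retrotransposon segment grows from 206 and 199 FPM to 334 and 534 FPM.

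Of the 5578 copies, 2121 had at least 1 read in at least 1 library and 3457 had none. Copies with reads were longer, with a median of 519 bases against 272 bases for copies without. After the filter of at least 1 FPKM in at least 2 libraries, 318 copies were tested with limma on log2(FPKM + 1), and 0 passed an adjusted p of 0.05, against 0% of all 10079 entries tested. The smallest limma adjusted p of a copy was 0.167, and a voom fit to the read counts called 0 as well. At an unadjusted p under 0.05, 65 copies were higher in mutant and 8 lower, or 20.4% and 2.52% of those tested, against 4.89% and 9.08% of all entries. The median log2 difference of tested copies was 0.39, against 0.02 over all entries. Over all 2121 copies with a read, tested with no filter on low values, the median was 0.03 against 0.04 over all entries. In that setting 5.52% of copies were higher and 1.93% lower at an unadjusted p under 0.05, against 3.71% and 5.82% of all entries. Of the 318, 36 passed the filter only through the mutant libraries and 9 only through the wildtype libraries, so these counts describe the copies that passed and not all copies. Leaving out mutant 2 left 32 copies higher and 20 lower of 241, or 13.3% and 8.30%, against 9.98% and 7.84% of all entries, with a median of 0.23. The median of copies was 0.66 without mutant 1, 0.44 without wildtype 1 and 0.49 without wildtype 2. Over all entries it was -0.013, -0.0080 and -0.00077 in these settings. Many of the tested copies were small: 177 were under 200 bases and 156 averaged under 10 reads.

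Counting error is smaller for copies with more reads. A total of at least 100 reads over the 4 libraries was reached by 119 copies, which held 67.9% of all transposable element reads. In 74 of these both mutant libraries lay above both wildtype libraries, against 23.3% of all entries with that many reads. In 11 both mutant libraries lay below, against 25% of all entries. The shares among copies were 62.2% above and 9.24% below. A copy can reach this total through 1 genotype alone. Cr1a{}1596 did so, with 0 and 4 reads in wildtype and 192 and 342 in mutant. These shares therefore describe the copies that reached it. Copies of 1 family or in 1 gene are also not independent, and 11 of the 119 were copia copies.

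At the level of families, 124 of 133 had reads and 64 passed the filter. With the copies of a family summed, 0 families passed an adjusted p of 0.05 in limma on log2(FPM + 1), against 0.00973% of all 10277 entries and families tested, and the voom fit also called 0. At an unadjusted p under 0.05, 12 families were higher in mutant and 2 lower, against 5.3% and 8.11% of all features. Both mutant libraries lay above both wildtype libraries in 35 families and below in 3, or 54.7% and 4.69%, against 23.1% and 25.1% of all features. The median family difference was 0.32 on the log2 scale, against 0.02 over all features. Of the 64 families, 4 passed the filter only through the mutant libraries and 1 only through the wildtype libraries. These counts and the median therefore describe the families that passed and not all families. Leaving out mutant 2 gave a family median of 0.17, with 39 of 56 families positive and 6 higher and 2 lower at an unadjusted p under 0.05. The higher share was then 10.7%, against 11.6% of all features. With wildtype 1 or wildtype 2 left out, the family median was 0.35 and 0.38. Only with mutant 1 left out did families pass: INE-1, copia, Cr1a, mdg3, accord and Tc1, 6 of 60, with limma adjusted p of 0.00968 for copia. Calls also appeared elsewhere in the table then, in 254 of 9644 features or 2.63%. In that setting the remaining mutant library is assumed to vary as the wildtype libraries do.

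**Figure D2:**
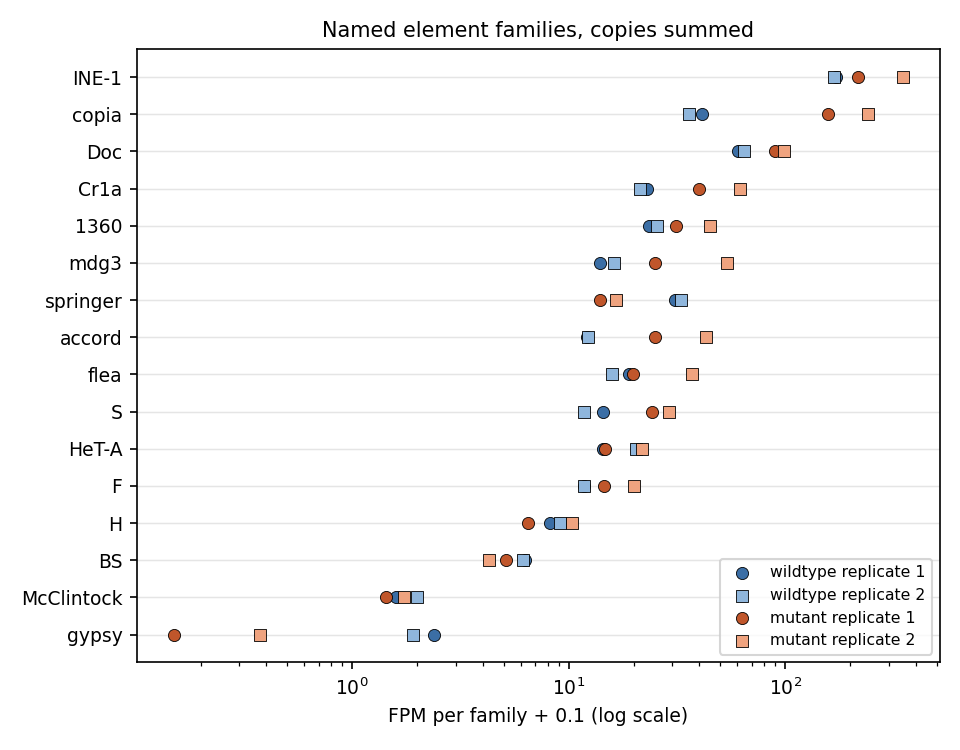
FPM plus 0.1 of the 16 named element families on a log axis, with 1 point per muscle library (circles for replicate 1, squares for replicate 2, blue for wildtype, orange for mutant). Copia lies at 41.0 and 35.7 FPM in wildtype and 158 and 241 FPM in mutant, while springer and gypsy lie lower in both mutant libraries.

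Copia, an LTR retrotransposon that is known for abundant RNA in flies and makes a protein shell around its RNA, had the smallest p of any family. It had 877 and 733 reads in wildtype 1 and 2, and 3202 and 4392 reads in mutant 1 and 2. Its summed FPM was 41.0 and 35.7 in wildtype and 158 and 241 in mutant. The groups were far apart, and copia alone made up 18.4% of transposable element FPM in both mutant libraries. The log2 difference was 2.32 ± 0.24 (SE, n = 2 per genotype; limma adjusted p = 0.145), and 2.02 to 2.62 with any 1 library left out. Without copia, the summed FPM of all other copies was 559 and 574 in wildtype and 700 and 1068 in mutant, a log2 difference of 0.61.

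The copia signal was spread over many copies. Of 39 annotated copies 28 had reads, and in 24 of these both mutant libraries lay above both wildtype libraries, against 20.4% of all entries with any read. All 11 copia copies with at least 100 reads were among the 24, with ratios of mean FPM between 2.81 and 10.98. Near full-length copies held almost all of the reads: 27 of the 32 copies of at least 4000 bases had reads, against 1 of 7 shorter copies. Full-length copia copies are known to be nearly alike in sequence, and how reads that match several copies were placed is not given in the sources used here. Family sums are therefore firmer than the split between copies.

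The copy with the most reads, copia{}1467 (3R, 31413145 to 31418286, minus strand), lies in an intron of Gprk2, a G protein-coupled receptor kinase, opposite to that gene's direction. It had 208 and 143 reads in wildtype and 947 and 1163 in mutant, a log2 difference of 2.16 on the log2(FPKM + 1) scale (limma adjusted p = 0.167). Gprk2 itself had 7.18 and 8.06 FPKM in wildtype and 9.05 and 11.3 FPKM in mutant, so the gene differed far less than the copy in its intron. copia{}920 (3L, 3601354 to 3606606, plus strand), in an intron of the cyclin-dependent kinase gene Eip63E and along its direction, had 151 and 95 reads in wildtype and 397 and 808 in mutant. Eip63E had 6.56 and 7.96 FPKM in wildtype and 7.52 and 9.42 FPKM in mutant, ranges that overlapped. Intergenic copies showed the same order: copia{}293 (2L, 2294097 to 2299243) had 152 and 135 reads in wildtype and 331 and 755 in mutant, and copia{}837 (2R, 16539693 to 16544843) had 79 and 74 in wildtype and 385 and 464 in mutant. Summed over intergenic copia copies the log2 difference of FPM was 2.12, and over intronic copies 2.61. Without copia{}1467 the family difference was 2.23.

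**Figure D3:**
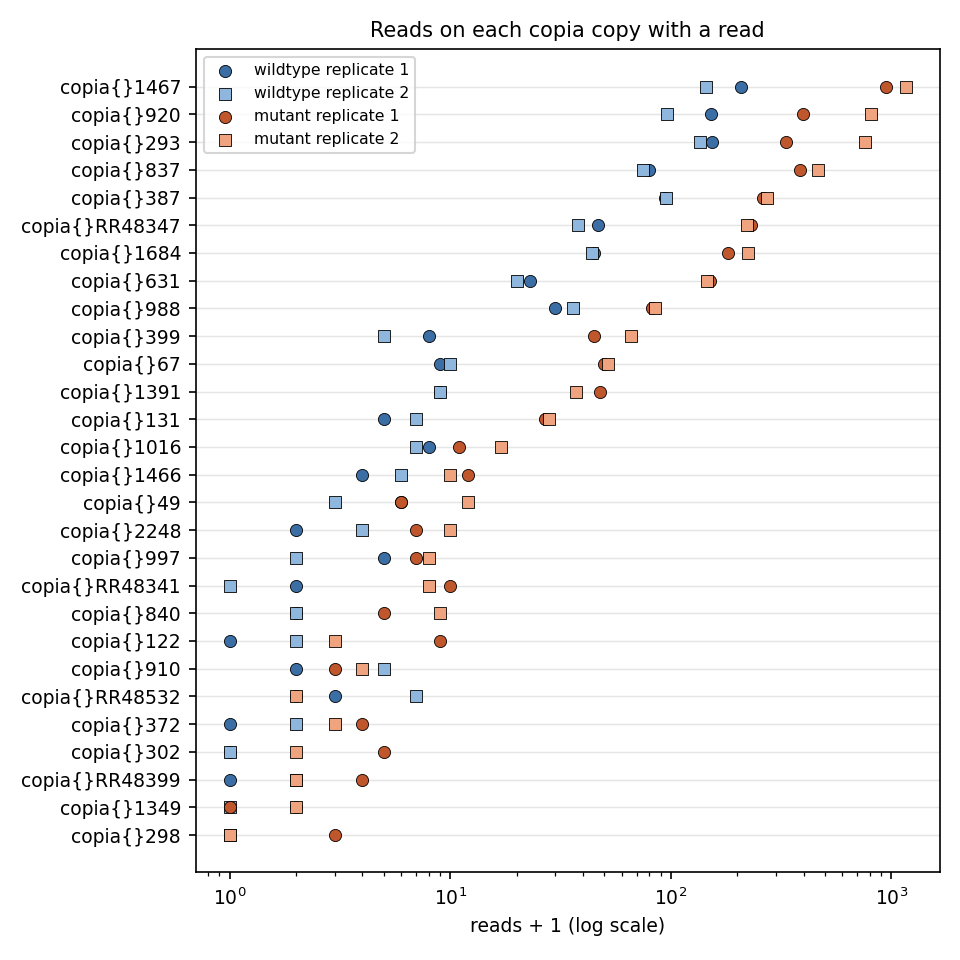
Reads plus 1 on each of the 28 copia copies with a read, on a log axis, with 1 point per muscle library and copies ordered by total reads. In the 11 copies with at least 100 reads all mutant points lie to the right of the wildtype points, and lower down the points come close to 0 reads and partly overlap.

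Other LTR families went in both directions. The mdg3 family had 13.8 and 16.2 FPM in wildtype and 24.9 and 53.9 in mutant, a log2 difference of 1.24 ± 0.40 (SE; limma adjusted p = 0.342). Mutant 2 was well above mutant 1, and the difference ran from 0.70 to 1.78 with 1 library left out. Its main copy, mdg3{}1184 (3R, 4206126 to 4211643), in an intron of CG14636 and antisense to it, had 158 and 207 reads in wildtype and 299 and 740 in mutant. The other mdg3 copies together had 6.41 and 6.08 FPM in wildtype and 10.1 and 13.4 in mutant. All accord reads fell on 1 copy, accord{}818 (2R, 12862330 to 12867554), which lies antisense in an intron of CG17574. It had 258 and 251 reads in wildtype and 506 and 788 in mutant, a family log2 difference of 1.37 ± 0.29 (SE; limma adjusted p = 0.28). Its host CG17574 did not share that order, at 9.78 and 17.1 FPKM in wildtype and 15.3 and 15.8 FPKM in mutant. The flea family kept its genotypes apart by little, with 18.9 and 15.7 FPM in wildtype and 19.7 and 37.1 in mutant, a log2 difference of 0.62 ± 0.34 (SE). Without flea{}3297, a copy in nrm described below, it had 18.8 and 15.7 FPM in wildtype and 17.7 and 33.3 in mutant, so that the genotypes overlapped. Its most read copy, flea{}1281 (3R, 9845570 to 9850598) in an intron of Teh1, had 132 and 135 reads in wildtype and 181 and 360 in mutant.

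Springer, a gypsy-like LTR retrotransposon, was the clearest family with lower values in mutant. It had 30.7 and 32.9 FPM in wildtype and 13.9 and 16.5 in mutant, a log2 difference of -1.02 ± 0.14 (SE, n = 2 per genotype; limma adjusted p = 0.195), and the groups did not overlap. springer{}1464 (3R, 31074284 to 31081826), antisense in an intron of the transcription factor gene Sox100B, had 297 and 319 reads in wildtype and 148 and 136 in mutant. springer{}59 (X, 5096328 to 5103837), antisense in introns of rg and CG15465, had 275 and 235 reads in wildtype and 48 and 71 in mutant. Another well-read copy, springer{}1067, did not differ in this way, with 59 and 70 reads in wildtype and 72 and 69 in mutant. The lower family value therefore came from named copies and not from all of them.

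The gypsy family, LTR elements with an envelope-like gene, was near its detection limit in mutant muscle. It had 49 and 37 reads in wildtype and 1 and 5 in mutant, or 2.29 and 1.80 FPM against 0.05 and 0.27 FPM. The fitted log2 difference was -1.39 ± 0.46 (SE; limma adjusted p = 0.349), and at such low values the added pseudocount of 1 sets its size. Most of these reads came from gypsy{}286 (2L, 1301807 to 1302288), an intergenic copy with 33 and 21 reads in wildtype and 0 and 2 in mutant. The remaining families with the smallest p on the lower side were BS (6.18 and 6.03 FPM in wildtype, 5.04 and 4.16 in mutant), McClintock (1.497 and 1.90, then 1.33 and 1.64) and H (8.09 and 9.05, then 6.37 and 10.2). Of these, BS alone kept its genotypes apart, with a log2 difference of -0.35 ± 0.19 (SE).

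Among non-LTR retrotransposons the Doc family was read mainly through a single insertion. Doc had 60.3 and 64.4 FPM in wildtype and 89.4 and 98.8 in mutant, a log2 difference of 0.59 ± 0.12 (SE; limma adjusted p = 0.28). Of its reads 93.9% belonged to Doc{}CHKov1[Doc1420] (3R, 25324412 to 25328927), the insertion in CHKov1 that is known from natural fly populations, where it alters that gene's transcript. This copy had 1175 and 1231 reads in wildtype and 1742 and 1701 in mutant. CHKov1 itself had 29.1 and 26.3 FPKM in wildtype and 37.8 and 44.3 FPKM in mutant, a log2 difference of 0.55 beside 0.60 for the insertion. The gene and the copy within it had the same order of libraries by genotype. The other 79 Doc copies together had 5.29 and 4.53 FPM in wildtype and 3.36 and 5.64 in mutant, so without that insertion the genotypes overlapped.

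The Cr1a family, old non-LTR copies common near heterochromatin, had 22.8 and 21.2 FPM in wildtype and 39.7 and 62.0 in mutant, a log2 difference of 1.14 ± 0.25 (SE; limma adjusted p = 0.28). Part of this was 1 copy, Cr1a{}1596, described below. Without it the family had 22.8 and 21.0 FPM in wildtype and 30.2 and 43.3 in mutant, a log2 difference of 0.72. The F family had 11.7 and 11.7 FPM in wildtype and 14.4 and 19.9 in mutant, a log2 difference of 0.50 ± 0.19 (SE). HeT-A, a non-LTR element whose copies build the chromosome ends of flies in place of telomerase repeats, did not separate the genotypes. It had 14.3 and 20.4 FPM in wildtype and 14.6 and 21.7 in mutant, a log2 difference of 0.05 ± 0.28 (SE). With the related TART copies added, the telomeric elements had 16.5 and 22.7 FPM in wildtype and 16.9 and 25.1 in mutant.

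Besides H and INE-1, the DNA elements named were 1360 and S. The 1360 family, a relative of the P element, had 23.4 and 25.4 FPM in wildtype and 31.2 and 44.9 in mutant, a log2 difference of 0.60 ± 0.21 (SE; limma adjusted p = 0.367). The S family had 14.4 and 11.6 FPM in wildtype and 24.1 and 29.0 in mutant, a log2 difference of 0.98 ± 0.18 (SE; limma adjusted p = 0.28). S was again carried by a single copy, which held 61.1% of its reads. S{}8 (X, 906756 to 908489), antisense in an intron of CG43867, had 156 and 110 reads in wildtype and 322 and 368 in mutant, while the other S copies had 7.06 and 6.28 FPM in wildtype and 8.20 and 8.87 in mutant. CG43867 itself had 3.01 and 2.99 FPKM in wildtype and 3.36 and 4.99 FPKM in mutant.

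INE-1 was the family with the most reads, from 815 of 2235 copies. Its FPM of 171 and 168 in wildtype and 216 and 351 in mutant gave a log2 difference of 0.69 ± 0.26 (SE; limma adjusted p = 0.382), and it ran from 0.34 to 1.04 with 1 library left out. Introns held most of this signal, with 149 and 147 FPM in wildtype and 190 and 308 in mutant. The log2 difference was 0.71 for intronic copies and 0.71 for intergenic copies, and 0.70 for copies along the host gene against 0.76 for copies opposite to it. These INE-1 differences were close to each other, and lay apart by less than the SD between mutant libraries (0.47 to 0.54). INE-1 copies in CaMKII, the calcium/calmodulin-dependent kinase gene on chromosome 4, were among the best read, with 32.8 and 35.7 FPM in wildtype and 36.3 and 59.3 in mutant. Of these INE-1{}3381 (4, 1038710 to 1039810) had 223 and 241 reads in wildtype and 264 and 448 in mutant, and INE-1{}3385 (4, 1042174 to 1042714) had 236 and 228 in wildtype and 210 and 231 in mutant. The first was highest in mutant 2, and the second overlapped between genotypes, within the same gene. Per length, INE-1{}3383, a copy of 84 bases, had 68.5 and 67.8 FPKM in wildtype and 72.3 and 117 FPKM in mutant. CaMKII itself had 50.1 and 52.4 FPKM in wildtype and 54.3 and 70.4 FPKM in mutant. The longer INE-1{}3381 and INE-1{}3385 lay below CaMKII, at 9.48 to 22.3 FPKM and 19.2 to 23.4 FPKM over the 4 libraries. FPKM of so short a copy is a poor measure beside a whole gene, and its level against the host was not tested.

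The copies with the smallest p included a group within 1 gene. Cr1a{}1596 and flea{}3297 both lie in nrm (3L, 22998372 to 23040300), which encodes neuromusculin, a cell adhesion protein. Cr1a{}1596 had 0 and 4 reads in wildtype and 192 and 342 in mutant (limma adjusted p = 0.171). flea{}3297 had 2 and 0 reads in wildtype and 39 and 69 in mutant. Both were close to absent in wildtype muscle and well read in mutant muscle. nrm itself differed less, with 9.17 and 10.98 FPKM in wildtype and 14.9 and 23.1 FPKM in mutant, a log2 difference of 0.83.

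Of 23 annotated copies in nrm, 11 had reads, and in 5 of these both mutant libraries lay above both wildtype libraries, with 2 below, against 20.4% and 17.8% of all entries with any read. INE-1{}3215 had 18 and 21 reads in wildtype and 57 and 65 in mutant, and INE-1{}3224 had 53 and 20 in wildtype and 68 and 131 in mutant. INE-1{}3220 had 0 reads in both wildtype libraries and 6 and 8 in mutant. Other copies in the same gene had the opposite order. INE-1{}3227 had 11 and 4 reads in wildtype and 0 in both mutant libraries, and INE-1{}3239 had 6 and 9 in wildtype and 0 in both mutant libraries. A count of 0 allows up to 3 reads per library, so the last values lie close to the floor. Summed over nrm, copies had 7.63 and 5.16 FPM in wildtype and 20.9 and 41.5 in mutant. Whether the insertions and deletions along nrm are the same in both stocks was not measured here.

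**Figure D4:**
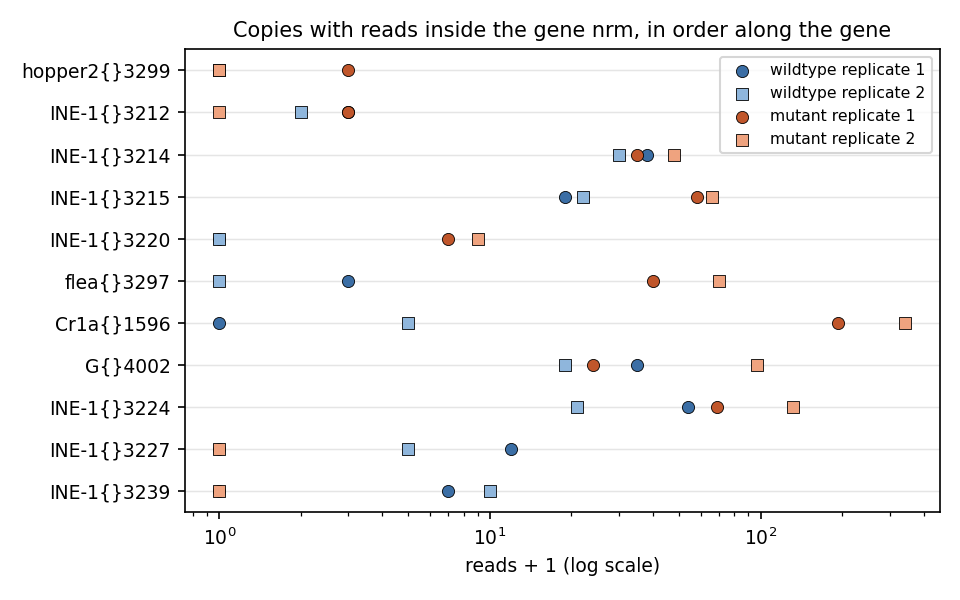
Reads plus 1 on the 11 transposable element copies in nrm that had reads, in order along the gene and on a log axis, with 1 point per muscle library. Cr1a{}1596 (0 and 4 reads in wildtype, 192 and 342 in mutant) and flea{}3297 (2 and 0, then 39 and 69) stand out, while INE-1{}3227 and INE-1{}3239 have reads in wildtype and 0 in mutant.

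The other copies picked for small p had few reads. Fw3{}5487 (4, 213385 to 213449) had 2 and 3 reads in wildtype and 12 and 9 in mutant. Tc1{}1557 (4, 1164447 to 1164629), in an intron of the kinesin gene Kif3C, had 8 and 5 reads in wildtype and 0 in both mutant libraries. INE-1{}5084, a copy of 30 bases in introns of Srg2 and dpr6, had 1 and 3 reads in wildtype and 0 in mutant, and INE-1{}2595, in an intron of CG11241, had 6 and 6 in wildtype and 2 and 0 in mutant. At these depths the order of libraries is visible but the size of a difference is not.

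By position, copies in introns, between genes and on exons all had higher summed FPM in both mutant libraries. The 2388 intronic copies had 379 and 376 FPM in wildtype and 524 and 845 in mutant, a log2 difference of 0.82. It was 0.83 for copies along the host gene and 0.84 for copies opposite to it. The 2800 intergenic copies had 142 and 146 FPM in wildtype and 218 and 331 in mutant, a log2 difference of 0.90, or 0.52 once copia was left out. The 388 copies that overlap an exon of another gene had 80.0 and 88.1 FPM in wildtype and 116 and 133 in mutant, a log2 difference of 0.57. They had 1709 and 1810 reads in wildtype and 2349 and 2434 in mutant. Most of these fell on Doc{}CHKov1[Doc1420], with 1175 and 1231 in wildtype and 1742 and 1701 in mutant. Only 0.11% of that copy's length overlaps an exon, and the exonic sum was not taken without it. Whether library preparation or counting kept strand is not given in the sources used here, so reads of a host gene and of an antisense copy cannot be told apart.

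Because a retained or unspliced intron carries its insertions along, copies were set beside their hosts. For 213 tested intronic copies in 116 tested host genes, the median log2 difference was 0.46 for copies and 0.23 for hosts. In 143 of the 213 the copy's difference was above its host's. The copy's difference was positive in 173 and its host's in 173, with the same sign in 153. Since most differences were positive on both sides, signs would often match for unlinked copies and hosts too. Of all 318 tested copies, 36 passed the filter only through the mutant libraries and 9 only through the wildtype libraries. The excess over hosts therefore describes copies that passed, and cannot be separated from that selection. Across these copies the Spearman correlation of copy and host differences was 0.35, given as a description, since copies in 1 gene share a host and all share the same libraries.

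By chromosome, the small, gene-dense and heterochromatin-rich chromosome 4 stood apart in how many copies were read at all: 63.2% of its 565 copies had reads, against 35.2% of copies elsewhere. Its copies had 174 and 185 FPM in wildtype and 219 and 341 in mutant, a log2 difference of 0.61. On 2L the difference was 1.11, on 3L 1.13, on 3R 0.93, on 2R 0.87 and on X 0.38. X copies had 78.2 and 75.7 FPM in wildtype and 83.3 and 121 in mutant, the narrowest gap among the large arms. springer{}59 is one of these X copies, and its part in the X gap was not tested.

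**Figure D5:**
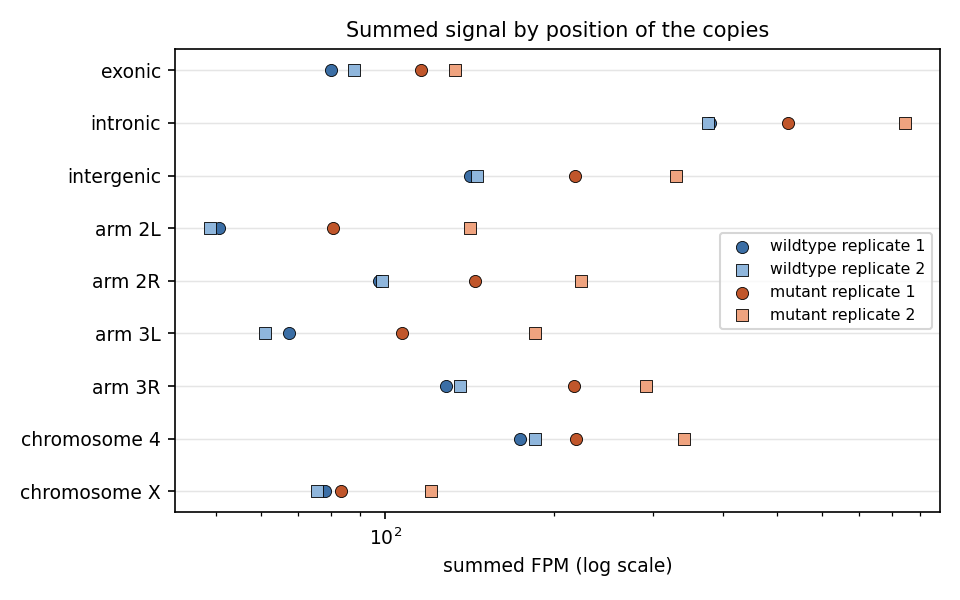
Summed FPM of transposable element copies by position in or between genes and by chromosome or arm, on a log axis, with 1 point per muscle library. Both mutant libraries lie above both wildtype libraries in each place drawn, with log2 differences from 0.38 on X to 1.13 on 3L.

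Genes of the pathways that silence transposable elements were looked at in the same libraries. Of 34 tested genes from lists for piRNA, siRNA and chromatin silencing, 0 passed an adjusted p of 0.05 in limma, and 2 were higher and 2 lower at an unadjusted p under 0.05. These were 5.88% each way, near the 4.89% and 9.08% of all entries, with a median log2 difference of 0.03 against 0.02 over all entries, and the voom fit called 0 as well. In the piRNA list 33 of 36 genes were in the table and 13 were tested, 8 with a positive and 5 with a negative difference. papi, a Tudor protein that helps trim piRNAs at mitochondria, had 18.4 and 22.0 FPKM in wildtype and 29.7 and 31.7 FPKM in mutant (limma adjusted p = 0.292). tapas, another Tudor-domain piRNA factor, had 15.4 and 16.5 FPKM in wildtype and 20.5 and 26.8 FPKM in mutant. piwi itself was low, with 1.95 and 0.38 FPKM in wildtype and 0.11 and 0.59 FPKM in mutant.

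All 8 siRNA genes in the table were tested, 6 with a positive and 2 with a negative difference. The 2 with the smallest p were Ars2, a cap-binding partner in small RNA processing, with a log2 difference of 0.22, and r2d2, the partner of Dcr-2, with -0.21. In the chromatin list 14 genes were tested, 9 with a positive and 5 with a negative difference. Su(var)205, which encodes the heterochromatin protein HP1a, had 23.3 and 22.9 FPKM in wildtype and 18.6 and 17.7 FPKM in mutant, a log2 difference of -0.33. HP1b, a related protein, had 6.29 and 5.27 FPKM in wildtype and 3.99 and 4.22 FPKM in mutant, a log2 difference of -0.41. Both were lower in both mutant libraries, and neither passed the test across all entries.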

How the data were processed

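The 4 muscle RNA-seq libraries were used. The authors deposited FPKM per entry for wildtype and mutant muscle. The build mm10 is named per the submitters' processing notes, but the table holds fly identifiers. No aligner, counter, strand setting or treatment of multiply matching reads is given in the sources used here. Copy names, families, hosts and coordinates came from the Ensembl release 115 annotation of BDGP6, in which 5576 of 5578 copies had the same start, end and strand.

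FPKM times length gave whole reads for every entry within 0.1 read. Summed over entries FPM ran from 917922 to 1131319, highest in mutant 2, so the authors' scaling was not to equal totals. Entries with at least 1 FPKM in at least 2 of the 4 libraries were fitted on log2(FPKM + 1) with limma 3.58.1 in R 4.3.3, with a mean-variance trend and Benjamini-Hochberg adjustment over all entries. Differences from this fit understate changes of low entries. Families were fitted likewise on log2(FPM + 1) with copies summed. Tested on simulated data, the fit made more false calls among single entries than its nominal rate. Counting error limits every low value.

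The named families and copies were the 12 with the highest means and the 5 smallest p per direction, and the silencing genes the 2 smallest p per list. Members, lists and rules were chosen with earlier results of these data known. The 4 sample columns of the whole-fly table, which lists 0 transposable elements, were not used.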

Additional observations from a re-analysis of the deposited data

How the results depend on the processing

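The count of transposable element copies passing an adjusted p of 0.05 was 0 under every alternative run: pseudocounts of 0.1 and 0.5, no filter on low values, at least 10 reads in 2 libraries, quantile scaling, rescaling to the library's reads, limma-voom, and each library left out. The count of families passing ran from 0 to 6 with 1 library left out, the 6 of 60 being without mutant 1, where 2.63% of all features passed, and was 0 in the other alternatives. The summed difference of all copies kept its direction, from 0.50 to 1.11 on the log2 scale, both ends from leaving out a mutant library. The non-LTR class moved to 0.40 with copies overlapping any other gene left out, a setting that takes out Doc{}CHKov1[Doc1420].

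Across 42 named features, 552 of 566 alternative values kept their direction and their side of the threshold, 5 newly passed it without mutant 1, and 9 changed sign. Doc was -0.13 with exonic copies left out and -0.081 with copies overlapping any gene left out. HeT-A was -0.19 without wildtype 1, -0.22 without mutant 2 and -0.024 with a trend on length removed, an alternative chosen after seeing the data, and ran from -0.22 to 0.32 with 1 library left out. H was 0.0016 without wildtype 2, 0.23 without mutant 1 and 0.013 with copies overlapping any gene left out, and ran from -0.37 to 0.23 with 1 library left out. INE-1{}3385 was -0.089 without mutant 2, and ran from -0.089 to 0.18 with 1 library left out. The cause was not tested for the last 3 features.

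At an unadjusted p under 0.05, the copies numbered 73 of 318, and 158 of 2121 with no filter (117 higher, 41 lower), a smaller share. They were 42 of 318 with limma-voom and 49 of 332 with quantile scaling. With the length trend removed the median difference was 0.28 for copies and 0.40 for families. Libraries of the 2 genotypes share only a number. With the replicate number as a block, 0 copies, 0 families and 0 silencing genes passed. In that setting 76 copies had an unadjusted limma p under 0.05, 20.8% higher and 3.14% lower, against 4.88% and 7.12% of all entries. Same-numbered libraries correlated in their deviations at 0.39 over all entries and -0.04 over copies.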

Other observations

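The values here were chosen after they were seen. HeT-A, whose family sum did not separate the genotypes, held copies that did, with 8 of 16 read copies higher in both mutant libraries and 1 lower, against 20.4% and 17.8% of all entries with any read. HeT-A{}4795 (X, 109756 to 114008) had 12 and 17 reads in wildtype and 54 and 61 in mutant, and HeT-A{}6262 (4, 1314342 to 1320140) had 24 and 18 in wildtype and 49 and 38 in mutant. The lower copy, HeT-A{}6268 (4, 1301834 to 1307750) had 76 and 120 reads in wildtype and 7 and 7 in mutant, while HeT-A{}6278, nearby on the same chromosome, had 94 and 111 reads in wildtype and 61 and 95 in mutant. The opus family, LTR elements, also summed to no difference, at 11.1 and 12.7 FPM in wildtype and 8.89 and 14.9 in mutant. Within it opus{}865, in an intron of CG30389, had 56 and 59 reads in wildtype and 9 and 14 in mutant, and opus{}1381, between genes, had 35 and 48 in wildtype and 7 and 11 in mutant. opus{}21 went the other way, with 22 and 37 reads in wildtype and 49 and 73 in mutant. For both families, the sums covered copies of opposite order.

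A few copies were set beside their hosts, as single examples. Tc1{}1529 (4, 773208 to 773805) in bt, which encodes the giant muscle protein projectin, had 56 and 60 reads in wildtype and 102 and 223 in mutant, and bt had 72.2 and 76.8 FPKM in wildtype and 103 and 195 FPKM in mutant. INE-1{}5397 (2L, 21208280 to 21208883) in clumsy, a glutamate receptor gene, had 40 and 36 reads in wildtype and 98 and 227 in mutant, and clumsy had 13.6 and 13.8 FPKM in wildtype and 28.2 and 55.3 FPKM in mutant. The 4 copies in TpnC41C, a troponin C gene, had 7.16 and 7.15 FPM in wildtype and 14.0 and 26.2 in mutant, while TpnC41C itself had 261 and 254 FPKM in wildtype and 281 and 335 FPKM in mutant. None of these copies passed the test across all entries in limma, where 0 of 318 copies did and 73 had an unadjusted p under 0.05.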
